A study of Mus musculus with 5 samples.

Results

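The genes described here fold, check and clear proteins of the endoplasmic reticulum (ER). A list of 35 symbols was searched in the 3 expression tables, and 34 were found among 36529 gene rows in each table. Os9l had no row. By role they were 12 chaperones and their helpers, 8 enzymes and oxidases of disulfide bond formation, 7 factors of ER-associated degradation, 4 subunits of the translocation machinery and 3 genes of the sensor branches (Ern1, Atf6 and Xbp1).

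Secretory proteins enter the ER through the Sec61 channel, are bound by chaperones such as BiP (Hspa5), gain disulfide bonds through protein disulfide isomerases, and are sent back to the cytosol for degradation if they fail to fold. When unfolded protein builds up, the sensors IRE1 (Ern1), ATF6 and PERK (Eif2ak3) raise the transcription of many of these genes and slow translation, which is the unfolded protein response. Endocrine islet cells make large amounts of prohormone in the ER, and the response is well known in insulin-producing beta cells.

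The study used droplet single-cell RNA-seq of mouse pancreas. Its question was how pancreatic neuroendocrine tumors start from some of the alpha cells, which make glucagon in the islet, when the glucagon receptor GCGR is lost. One islet library came from a GCGR heterozygous genotype and 1 from a GCGR homozygous knockout, and 3 tumor libraries, named tumor A, B and C here, came from the homozygous knockout genotype too. The labels give neither the allele nor ages. The deposited tumor table names its libraries by 3 different animals; whether each islet library was 1 animal or a pool is not stated. P-values of tumors against islets measure the spread between these libraries. Those of cells compared within libraries measure how the difference varied from library to library. No wild-type islet was analysed here.

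After removal of called doublets 1326 heterozygous and 2843 homozygous islet cells and 495, 846 and 1084 tumor cells were used, with medians of 10960 to 26090 UMIs (unique molecular identifiers, 1 per captured transcript) per cell. The authors' cell types gave 306 heterozygous and 1525 homozygous alpha cells. All 8 alpha cell markers had UMIs in the alpha cells and in the tumor cells of each library, as they also had in beta and delta cells. Their sum lay between 394200 and 427400 CPM (UMIs of a gene scaled to a total of 1000000) in the alpha and tumor cells. It was 9638 and 27370 CPM in heterozygous and homozygous beta cells, and 39470 in homozygous pancreatic polypeptide cells. In the tumor table the authors' clusters followed the libraries: tumor A was almost all cluster 3, tumor B cluster 1, and tumor C clusters 2 and 4. Hormone transcripts took 43.2% and 50.1% of UMIs in heterozygous and homozygous alpha cells, 71.2% and 70.7% in beta cells and 37.0%, 29.5% and 31.8% in tumors A, B and C. A falling hormone share raises the CPM of every other gene, so changes are also given relative to the median gene and with totals free of the 8 hormone transcripts.

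Promoters of the genes on which the results below turn are shown because the unfolded protein response acts on known DNA elements. The RefSeq windows used (GRCm38.p6, 250 bases before to 50 bases after the annotated start) matched 28 of the 34 genes; Atf6, Derl1, Hyou1, Manf, Sec61a1 and Ssr2 were not matched. The ER stress response element, searched on both strands as CCAAT and CCACG with 9 bases of any kind between them, was in the windows of 10 of these 28 genes (35.7%) and of 37 of all 27025 genes (0.137%). The shorter element II, ATTGG and CCACG with 1 base between them, was in those of Dnajb11 and Herpud1 (7.14%) and of 12 of all genes (0.0444%). The core ACGTG, shared by binding sites of ATF6 and XBP1, was in 13 of 28 (46.4%) against 21.8% of all genes. It overlapped 1 of the 13 matches to the longer elements. Hsp90b1, the ER paralog of HSP90, was the gene with 2 matches to the first element. A match describes the letters only. The elements were picked as known ones of this response, and element II with earlier results known, so these shares are a description and not a test. Below are the 220 bases before the start, 5′ to 3′, with the fixed letters of either element in capitals. Hspa5 and Herpud1 are the genes called higher in tumors, Ero1lb the gene called higher in beta cells, and Pdia6 the gene past 1.5-fold between genotypes upward in alpha and downward in beta cells.
Hspa5 (chr2:34771870-34772089, plus strand, GRCm38.p6): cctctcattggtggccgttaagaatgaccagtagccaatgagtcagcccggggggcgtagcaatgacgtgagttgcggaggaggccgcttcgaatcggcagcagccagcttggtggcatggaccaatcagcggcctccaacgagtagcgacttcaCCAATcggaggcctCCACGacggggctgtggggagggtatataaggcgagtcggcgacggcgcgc
Herpud1 (chr8:94386209-94386428, plus strand, GRCm38.p6): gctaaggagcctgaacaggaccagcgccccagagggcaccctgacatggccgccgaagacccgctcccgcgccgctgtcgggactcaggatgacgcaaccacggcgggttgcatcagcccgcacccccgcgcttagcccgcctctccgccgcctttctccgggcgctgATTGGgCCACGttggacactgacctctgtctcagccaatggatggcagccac
Ero1lb, named Ero1b in RefSeq (chr13:12565663-12565882, plus strand, GRCm38.p6): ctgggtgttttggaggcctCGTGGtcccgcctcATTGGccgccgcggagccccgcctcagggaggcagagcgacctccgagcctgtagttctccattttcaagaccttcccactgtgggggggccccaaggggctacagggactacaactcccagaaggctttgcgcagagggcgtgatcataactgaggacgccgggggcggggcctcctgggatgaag
Pdia6 (chr12:17266369-17266588, plus strand, GRCm38.p6): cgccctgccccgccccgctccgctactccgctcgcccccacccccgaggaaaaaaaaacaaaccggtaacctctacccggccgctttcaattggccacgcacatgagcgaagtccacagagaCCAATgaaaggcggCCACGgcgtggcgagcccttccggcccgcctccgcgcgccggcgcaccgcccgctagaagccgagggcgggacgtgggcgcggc
The match lay at position -65 from the start in Hspa5, -52 in Herpud1 (element II), -201 in Ero1lb (on the opposite strand) and -98 in Pdia6.

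The tumors held more transcripts of most of the ER folding genes than islet alpha cells did, but few of the differences passed the test with 3 tumor and 2 islet libraries. Summed over the 34 genes, islet alpha cells were at 3424 CPM (heterozygous) and 3847 CPM (homozygous), and tumors A, B and C at 5905, 6930 and 5737 CPM. With totals free of hormone transcripts the same sums were 6023 and 7709 CPM against 9373, 9834 and 8417, so the groups did not overlap on either scale, by a narrower gap on the second. The tumor cells' 10th percentile was 3528, 4580 and 4048 CPM, beside medians of 3348 and 3733 CPM among the alpha cells of each islet genotype. The islet side of this comparison mixed both genotypes.

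Of 32 members with 5 CPM or more in 2 libraries (Derl3 and Ern1 fell below), 2 were higher in tumors and 0 lower at an adjusted p of 0.05 in limma, beside 2.08% and 0.138% of all 10173 genes tested. The members' median log2 change was 0.68, or 0.44 relative to the median gene, whose own shift was 0.24. Without adjustment 18 members were under 0.05, all higher, against 21.2% of all genes. In 24 of the 32 members (75.0%) every tumor library was above both islet libraries, which held for 33.3% of all genes, and in 0 were they all below (5.73% of all genes). With hormone-free totals 15 members (46.9%) lay above, against 17.6% of all genes, and 1, Ero1lb, below, against 19.6%.

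Among the chaperones, Hspa5, which encodes BiP, the ATP-driven chaperone that also holds the sensors inactive, had means of 177 CPM (heterozygous) and 249 CPM (homozygous) in alpha cells and of 507, 639 and 607 in tumors A, B and C. All 3 tumors were above both islet libraries, and the homozygous library was the higher of the islets. The log2 change was 1.47 (SE 0.28, adjusted p = 0.0441 in limma), or 1.23 relative to the median gene. The call did not hold without a filter on low values (adjusted p = 0.126), with TMM scaling (0.155), with hormone-free totals (0.135), in edgeR (0.176) or when any 1 library was left out (0.0719 to 0.161), while the log2 change stayed between 1.11 and 1.71 in all of these. In DESeq2 the adjusted p was 0.00471.

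Hyou1, an ER chaperone related to HSP70 that exchanges the nucleotide on BiP, stood at 19.5 and 18.02 CPM in the islet libraries and at 95.8, 112 and 26.6 CPM in tumors A, B and C. Tumors A and B were far above tumor C, which was just above the islets. Over all libraries the log2 change was 1.76 (SE 0.55, adjusted p = 0.131). Without tumor C it was 2.40 with an adjusted p of 0.0105 in limma, and Hyou1 was then the 1 member called (0.527% of all genes).

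Manf, a secreted and ER-resident protein induced by ER stress, was at 242 and 379 CPM in alpha cells and at 397, 983 and 527 CPM in tumors. Tumor B stood apart from the others, and tumor A was only just above the homozygous alpha cells (log2 change 0.96, SE 0.42, adjusted p = 0.239). Hsp90b1, which folds a narrower set of client proteins, was at 318 and 350 CPM against 519, 682 and 582 (log2 change 0.82, adjusted p = 0.143). Calr and Canx, the lectin chaperones of glycoproteins, had log2 changes of 0.67 and 0.32 with adjusted p of 0.198 and 0.490. The remaining chaperones had log2 changes between 0.20 (Dnajc3) and 0.88 (Dnajb11), and none passed the test.

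**Figure D1:**
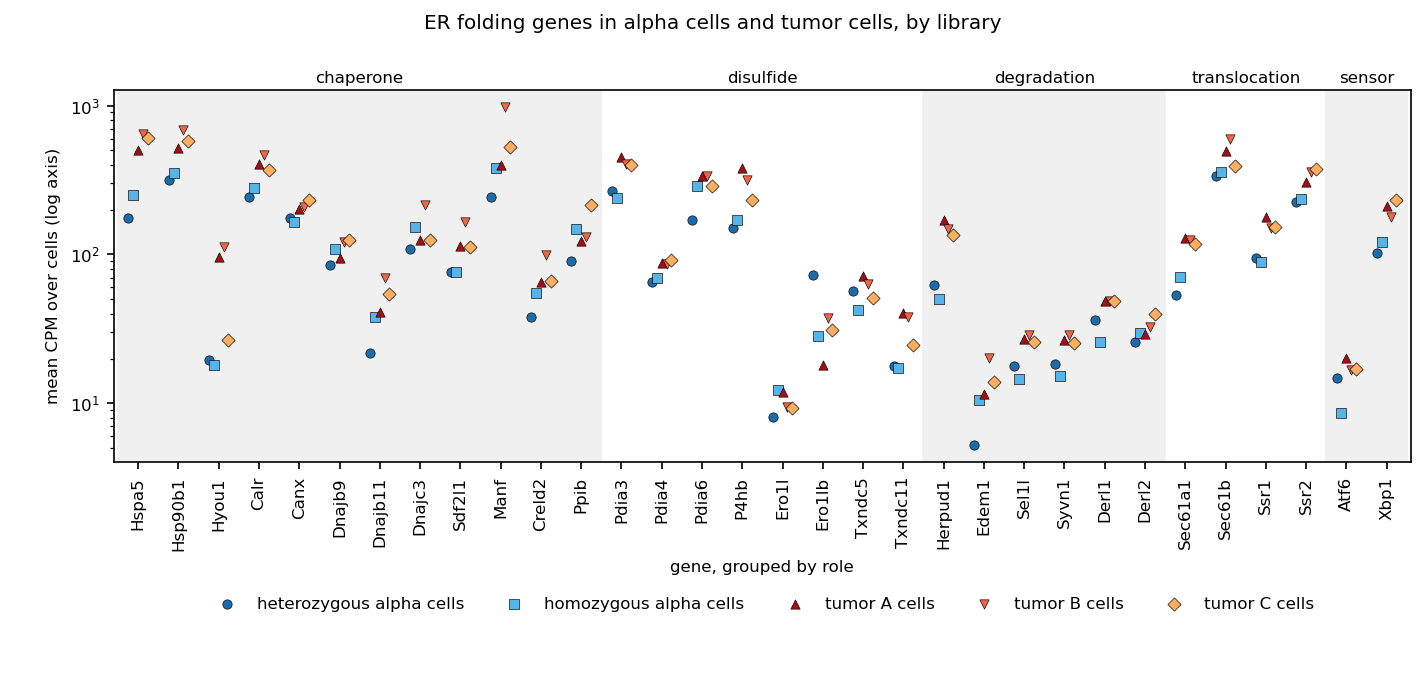
Mean CPM over cells (log axis) of 32 ER folding genes in heterozygous and homozygous islet alpha cells and in tumors A, B and C, 1 point per library, grouped by role. Hspa5 and Herpud1 have all tumor points above both islet points, Hyou1 is at 95.8 and 112 CPM in tumors A and B but at 26.6 in tumor C, and Ero1lb is highest in heterozygous alpha cells.

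The disulfide arm summed to 812 and 845 CPM in alpha cells and to 1420, 1301 and 1123 CPM in tumors, with no member called. P4hb, the classical protein disulfide isomerase, was at 150 and 170 CPM in islets and at 383, 315 and 233 in tumors (log2 change 0.93, SE 0.29, adjusted p = 0.131). Pdia3, which serves calnexin and calreticulin clients, was at 268 and 238 CPM against 450, 404 and 396 (adjusted p = 0.162). All tumor values of both genes were above both islet values. Ero1lb, the pancreas-enriched oxidase that recharges the isomerases, ran the other way, at 72.8 CPM and 28.5 CPM in the alpha cells of the heterozygous and the homozygous library and at 18.1, 37.7 and 30.9 in tumors (log2 change of -0.70, SE 0.44, adjusted p = 0.404). The homozygous alpha cells lay within the tumors' range.

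Herpud1 was the called member of the degradation arm. It encodes a membrane protein that scaffolds the HRD1 ubiquitin ligase and is among the early targets of ER stress. Its level was 62.1 and 50.04 CPM in alpha cells and 169, 147 and 136 CPM in tumors A, B and C. The 3 tumors lay close together and far above both islet libraries. The log2 change was 1.41 (SE 0.25, adjusted p = 0.0332 in limma), or 1.17 relative to the median gene. As for Hspa5, the call was lost without a filter (adjusted p = 0.0930), with TMM scaling (0.0867), with hormone-free totals (0.0887), in edgeR (0.113) and without any 1 library (0.0697 to 0.121), with log2 changes from 1.09 to 1.57, and it held in DESeq2 (adjusted p = 0.000128). Sel1l and Syvn1, partners in the same ligase, had log2 changes of 0.73 and 0.65 (adjusted p = 0.131 and 0.160). Edem1, which marks glycoproteins for disposal, was at 5.22 and 10.5 CPM against 11.6, 20.2 and 14.0 (adjusted p = 0.198).

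In the translocation arm Sec61a1, the pore of the channel, came nearest to the threshold, with 53.3 and 70.3 CPM in islets and 129, 125 and 118 CPM in tumors (log2 change 1.006, SE 0.24, adjusted p = 0.0802). Ssr1 and Ssr2, subunits of the translocon-associated TRAP complex, had changes of 0.80 and 0.58. Of the sensor branches, Xbp1, the transcription factor whose mRNA is spliced by IRE1, was at 102 and 121 CPM in alpha cells and at 213, 179 and 233 CPM in tumors (log2 change 0.89, SE 0.25, adjusted p = 0.106). UMI counts do not tell its spliced from its unspliced form. Atf6 was at 14.8 and 8.63 CPM against 20.1, 16.8 and 16.9 (adjusted p = 0.260). Ern1 was near the limit of detection, with 5 and 64 UMIs (1.56 and 2.89 CPM) in alpha cells and 2.89 to 3.32 CPM in tumors.

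Other genes of the same pathways, from 5 lists with 64 genes tested, gave 3 higher and 0 lower in tumors, beside 2.08% and 0.138% of all genes, with a median of 0.19 relative to the median gene. In the PERK branch 2 of 8 tested genes were called: Eif2ak3, the sensor kinase itself, and Ppp1r15b, a subunit of the phosphatase that reverses its mark. Eif2ak3 was at 8.36 and 9.89 CPM in alpha cells and 23.5, 27.4 and 39.2 in tumors (log2 change 1.59, adjusted p = 0.0345 in limma). Ppp1r15b was at 12.7 and 10.0 CPM against 40.7, 43.4 and 63.7 (log2 change 2.01, adjusted p = 0.0245 in limma). Sec61g, the small subunit of the channel, was at 81.7 and 73.2 CPM against 207, 228 and 191 (log2 change 1.42, adjusted p = 0.0317). No gene of the other folding, other degradation or ER to Golgi lists was called. Of these 3 calls 1, Ppp1r15b, held with TMM scaling, with hormone-free totals and without tumor B or tumor C, and 0 held in edgeR, without a filter or without tumor A or either islet library.

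Measures that moved beside these values were as follows. The sum of 16 immediate early and heat shock genes was 4111 CPM (heterozygous) and 628 CPM (homozygous) in alpha cells and 2321 to 2795 in tumors. The 8 beta cell markers summed to 55580 and 11510 CPM in alpha cells. In tumors A, B and C they summed to 7.24, 138 and 3334 CPM. Among them Mafa was at 0 in each tumor, but also in heterozygous alpha cells and in homozygous beta cells. It had UMIs in homozygous alpha cells and in heterozygous beta cells. The pancreatic polypeptide cell markers summed to 16340 and 76960 CPM in alpha cells and to 2768, 686 and 936 in tumors, and T cell markers to 3.11 and 28.6 CPM against 66.9, 71.4 and 106.5. Nearly all of the T cell sum in homozygous alpha cells and tumors was Cd2, at 28.5 CPM and at 65.9, 71.3 and 100.4. Cd3e and Cd3g were at most 3.31 CPM in each library. Acinar cell markers summed to 2.49 and 133.8 CPM in alpha cells and to 12.1, 2.83 and 144.9 in tumors A, B and C. Ductal cell markers summed to 188 and 814 CPM in alpha cells and to 161, 613 and 287.5 in these tumors. Endothelial, stellate and macrophage marker sums were at most 118 CPM in both groups. Their part in the tumor differences was not tested.

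Islet cell types were compared in 1 fit with the 2 islet libraries, 1 of each genotype, as a block. A type difference that changed with genotype therefore counted as spread, which was estimated over alpha, beta, delta, endothelial and stellate cells together. Beta cells had 1 of 32 members higher than alpha cells and 0 lower, beside 0.396% and 3.25% of all 12886 genes. The median log2 difference of the members was 0.13 and that of all genes -0.44, so that the members stood 0.56 above the median gene and 28 of 32 lay above it. Without adjustment 9 were under 0.05, 5 of them higher, against 16.1% of all genes. The called member was Ero1lb. It had 468 and 165 CPM in heterozygous and homozygous beta cells against 72.8 and 28.5 in alpha cells, and the beta cells of each library were well above its alpha cells. The log2 difference was 2.58 (SE 0.41, adjusted p = 0.0163 in limma), or 3.02 relative to the median gene. The levels in delta cells were 56.8 and 11.6 CPM, in endothelial cells 18.6 and 11.7, and in stellate cells 21.8 and 4.66. The beta marker sum, which shows beta cell RNA outside beta cells, was 47840 and 8166 CPM in endothelial cells, and the part of such RNA in the Ero1lb level of other types was not tested.

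The count of members higher in beta cells was 2 with TMM scaling (0.877% of all genes), 6 with hormone-free totals (1.04%), 15 in edgeR (8.02%) and 17 in DESeq2 (5.03%). It was 0 without a filter on low values (0.143%), where Ero1lb had an adjusted p of 0.0509. Hspa5 was at 236 and 327 CPM in beta cells against 177 and 249 in alpha cells (log2 difference 0.40, adjusted p = 0.309), and with hormone-free totals the difference was 1.23 (adjusted p = 0.0274). Herpud1 differed by -0.02 in limma and by 0.61 in DESeq2 (adjusted p = 0.0272). Summed over all members, beta cells had 4550 (heterozygous) and 3590 CPM (homozygous) against 3424 and 3847 in alpha cells, so the order differed between the libraries. On hormone-free totals they had 15770 and 12250 CPM against 6023 and 7709. Prdx4, an ER peroxiredoxin from the other folding list, was the 1 gene of the 5 pathway lists called, and it was lower in beta cells at 14.1 and 19.4 CPM against 67.6 and 111 (log2 difference of -2.32, adjusted p = 0.00471 in limma).

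Delta cells, which make somatostatin, had 1 member higher than alpha cells and 0 lower, beside 0.792% and 0.202% of all genes, and a members' median of 0.42 relative to the median gene. Without adjustment 12 were under 0.05, all higher, against 9.3% of all genes. Hspa5 was at 409 and 457 CPM in delta cells against 177 and 249 in alpha cells of the same libraries, so the groups did not overlap (log2 difference 1.04, SE 0.17, adjusted p = 0.0435 in limma). This call was lost with TMM scaling (adjusted p = 0.195), in edgeR (0.167), without a filter (0.0676), with hormone-free totals (0.0641) and with a pseudocount of 0.5 CPM (0.0543). Herpud1 was at 195 and 124 CPM in delta cells against 62.1 and 50.04, and missed the threshold in limma (log2 difference 1.46, adjusted p = 0.0504) while edgeR gave an adjusted p of 0.00356. Hsp90b1 stood at 633 and 620 CPM against 318 and 350 (adjusted p = 0.104). No gene of the other pathway lists was called in delta cells.

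In endothelial cells the result depended on the scaling. On the CPM scale 10 members were higher and 3 lower than in alpha cells, beside 29.1% and 8.31% of all genes, but with TMM scaling 3 were higher and 8 lower (15.8% and 16.0% of all genes), and with hormone-free totals 3 and 7 (16.5% and 14.3%). Hormone transcripts took 5.34% and 4.08% of the UMIs of endothelial cells, and their median gene was 0.76 above that of alpha cells; the members' median was -0.39 relative to it. Of those higher on the CPM scale, Dnajb11, a cochaperone of BiP, was at 149 and 139 CPM against 21.6 and 37.9 (log2 difference 2.29, or 1.53 relative to the median gene, adjusted p = 0.00147 in limma). Ppib, the ER cyclophilin that works on collagen among other clients, was at 456 and 391 CPM against 90.7 and 149 (log2 difference 1.85, or 1.09 relative to it). Sel1l, Edem1 and Derl1 were 1.15, 1.33 and 0.72 above the median gene. Calr, Canx, Pdia3, Pdia4 and Herpud1 were called on the CPM scale but lay within 0.24 of the median gene, and with TMM scaling the differences of all but Herpud1 were below 0 (-0.05 to -0.42), none of them called. Sec61b, Ssr2 and Ero1lb were lower on the CPM scale, with differences of -2.01, -1.39 and -2.32 relative to the median gene. Of 67 other pathway genes 17 were higher and 5 lower on the CPM scale, with a median of -0.23 relative to the median gene; Ssr4 and Sec61g, subunits of the same machinery as Ssr2 and Sec61b, were among the lower ones (-2.76 and -2.04 relative to it).

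Ppib was at its highest in stellate cells, with 811 and 791 CPM. Among the islet cell types, the lowest sums over all members on the CPM scale were 2924 in the pancreatic polypeptide cells, a type given in the homozygous library, and 3424 in heterozygous alpha cells. The highest were 6688 and 7462 CPM in stellate cells, with 33 and 74 cells. This order changed with hormone-free totals, where pancreatic polypeptide cells were at 9366, stellate cells at 7085 and 7802, macrophages lowest at 3722 and beta cells highest at 15770 and 12250. Derl3, a derlin found in secretory tissues, was near 0 almost everywhere: it had 149 UMIs (8.63 CPM) in heterozygous beta cells, 8 UMIs (1.42 CPM) in homozygous beta cells and 1.59, 4.78 and 2.71 CPM in tumors A, B and C.

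**Figure D2:**
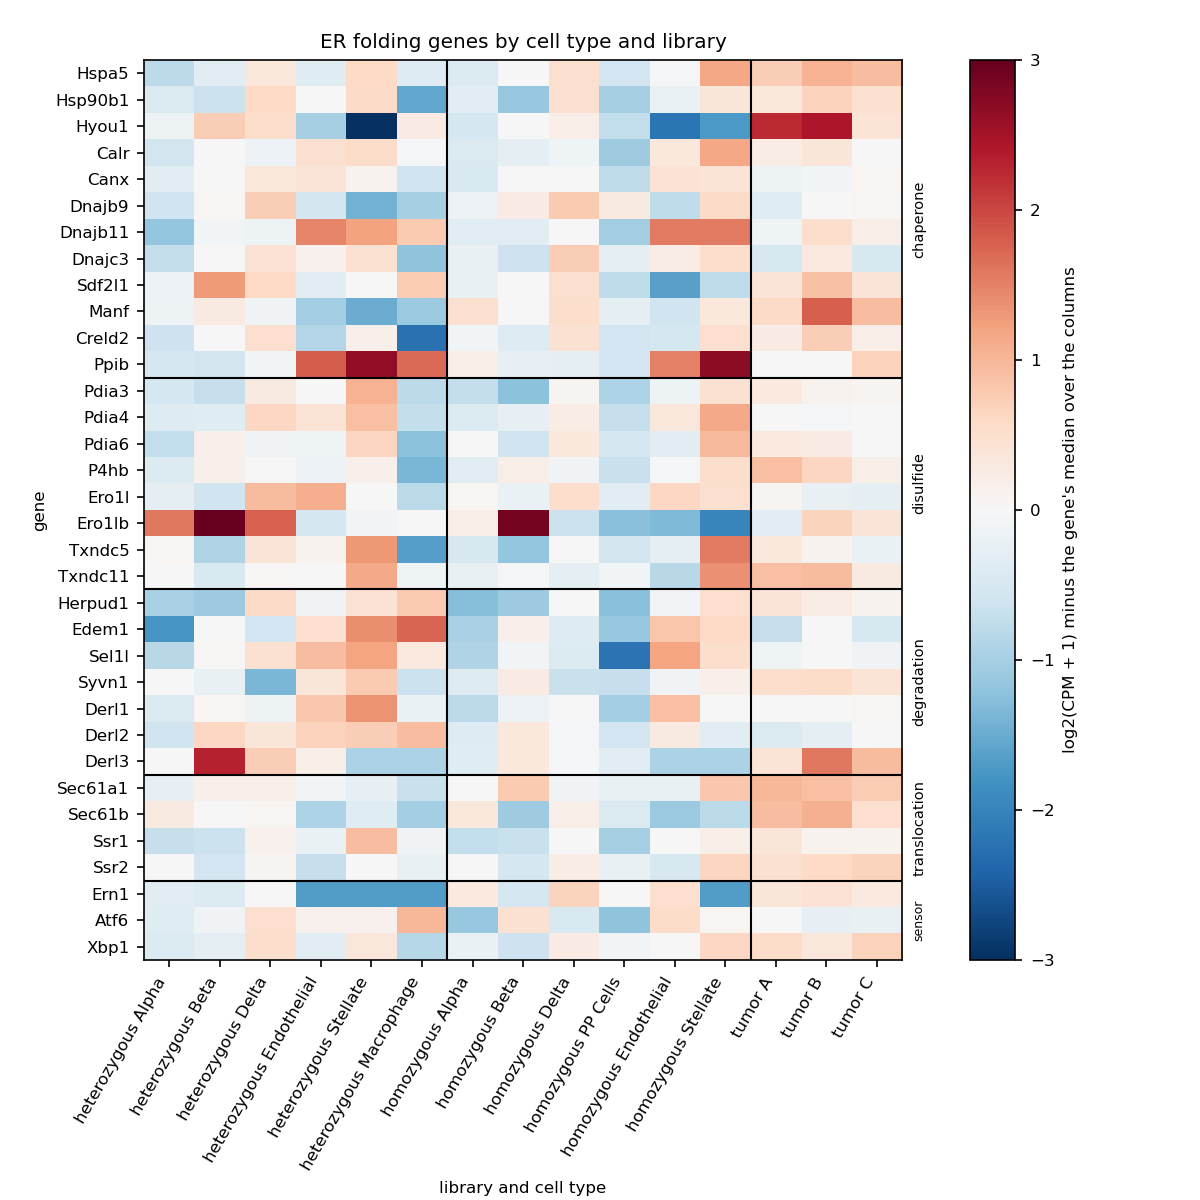
Levels of 34 ER folding genes (rows, by role) in 15 combinations of library and cell type (columns), as log2(CPM + 1) of summed UMIs minus the gene's median over the columns. Ero1lb stands out in beta cells, Ppib in stellate and endothelial cells, and Hyou1 in tumors A and B; Ern1 and Derl3 have under 10 CPM in each column, and their blue cells are counts of 0 or a few UMIs.

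Between the islet genotypes there was 1 library each and no test; ratios of summed UMIs carry exact 95% intervals that cover counting error only. Members needed 50 CPM or more in at least 1 genotype, which 22 had in alpha cells. Of these, 1 had a homozygous over heterozygous ratio whose interval lay beyond 1.5-fold upward and 1 downward, beside 4.51% and 16.2% of 1952 genes. The members' median ratio was 1.07 and that of all genes 0.857. Pdia6, a disulfide isomerase that also damps IRE1 signalling, was at 173 CPM in alpha cells of the heterozygous library and 291 CPM in those of the homozygous one (ratio 1.68, interval 1.54 to 1.84). Ero1lb was at 72.5 and 26.9 CPM (ratio 0.371, interval 0.319 to 0.434), and met the minimum through the heterozygous library only. With hormone-free totals 4 of 25 members were beyond 1.5-fold upward (6.2% of genes): Pdia6, Manf, Ppib and Dnajb11. Of these, Dnajb11 met the minimum through the homozygous library only. On the CPM scale Manf was at 254 and 391 CPM (ratio 1.54, interval 1.43 to 1.65) and Ppib at 91.7 and 148 (ratio 1.61, interval 1.43 to 1.83).

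In beta cells none of 22 members lay beyond 1.5-fold upward and 4 lay beyond it downward, beside 4.42% and 6.17% of 1199 genes, and the members' median ratio was 0.826 against 0.974 for all genes. Sdf2l1, a partner of BiP that keeps unfolded proteins soluble, was at 218 CPM in heterozygous and 89.7 in homozygous beta cells (ratio 0.413, interval 0.375 to 0.453). Sec61b, the beta subunit of the channel, was at 287 and 137 CPM (ratio 0.477, interval 0.442 to 0.515). Ero1lb was at 489 and 180 CPM (ratio 0.368, interval 0.344 to 0.393), with an interval that overlapped that of alpha cells. Pdia6 was at 324.5 and 193 CPM (ratio 0.594, interval 0.556 to 0.634), opposite in direction to alpha cells.

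In both types 21 members had 50 CPM or more in at least 1 genotype. Of these, 11 had an interval in alpha cells wholly above that in beta cells and 1, Sec61a1, wholly below, beside 24.5% and 38.0% of 1110 genes. For 7 of the 21 (Hsp90b1, Calr, Dnajc3, Manf, Creld2, Pdia6 and Xbp1) the alpha interval was above 1 and the beta interval below 1, which held for 10.4% of these genes. With 1 library per genotype, a difference between animals and one between genotypes cannot be told apart. The immediate early and heat shock genes were at 4111 and 628 CPM in the same alpha cells, and their part was not tested. Neither was that of free beta cell RNA, whose markers were at 55580 and 11510 CPM in alpha cells.

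In delta cells Ero1lb was also lower in the homozygous library, at 82.5 and 14.8 CPM (ratio 0.179, interval 0.115 to 0.281), the 1 member beyond 1.5-fold downward (10.4% of 2529 genes). It met the minimum of 50 CPM through the heterozygous library only. The beta cell markers in the same delta cells summed to 162500 and 64140 CPM, and their part in this ratio was not tested. None was beyond it upward (0.87%). In stellate cells Manf was at 99.99 CPM on 9 UMIs and 353 CPM on 67 UMIs (ratio 3.53, interval 1.75 to 8.05), the 1 member upward (2.0% of 3995 genes), with none downward (1.7%). No member passed in endothelial cells (3.22% of genes upward and 1.33% downward).

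**Figure D3:**
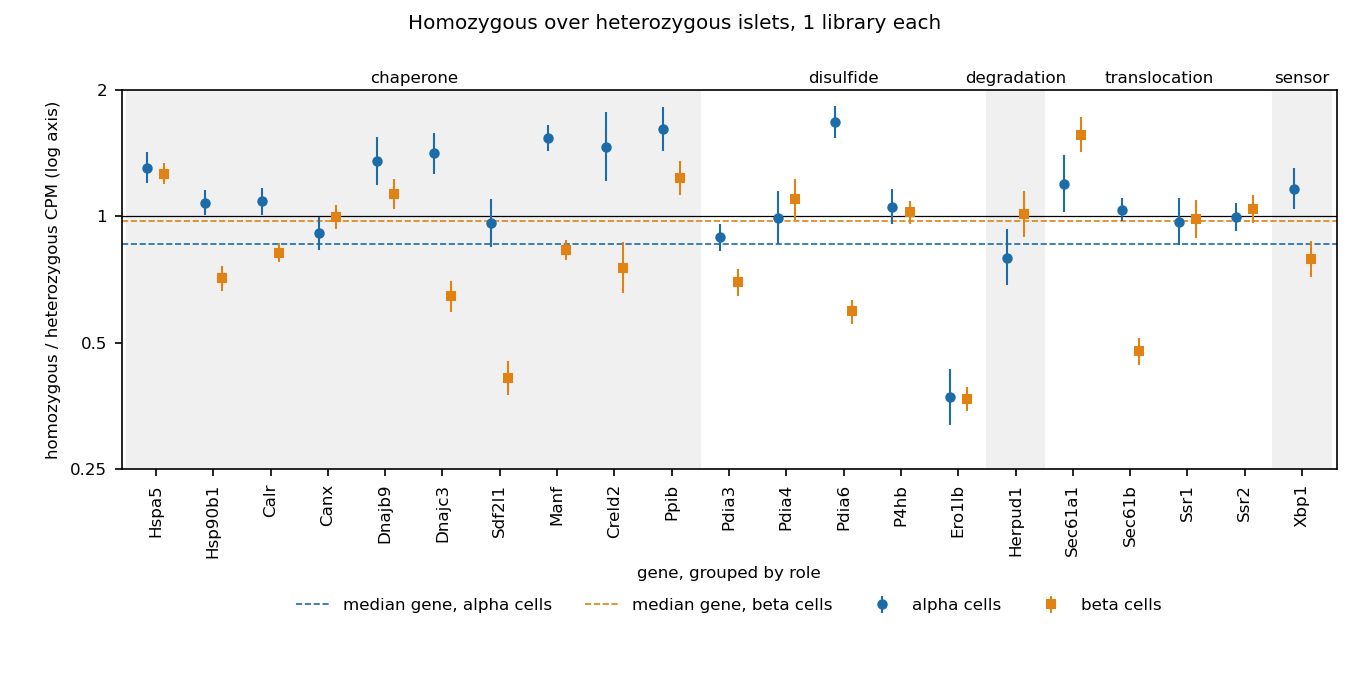
Ratio of homozygous to heterozygous CPM (log axis) for 21 ER folding genes in alpha cells (circles) and beta cells (squares), with exact 95% intervals that cover counting error only; dashed lines are the median gene of each type. Pdia6 is at 1.68 in alpha and 0.594 in beta cells, and Ero1lb is near 0.37 in both.

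The series also asks about a subpopulation of alpha cells. Alpha cells and tumor cells thinned to 5000 UMIs were split by whether a UMI of Slc38a5, a glutamine transporter, was present; a cell without one may still express it. The classes held 59 positive and 200 negative heterozygous cells, 997 and 430 homozygous cells, and 428 and 51, 822 and 20, and 1032 and 36 cells of tumors A, B and C. No member was called of 32, and no gene of 11426 (0.0%) in limma. In edgeR 72 genes (0.63%) and in DESeq2 29 genes (0.254%) were called, again with 0 members. At an unadjusted p under 0.05 there were 10 members, all higher in positive cells, against 8.99% of all genes. The median gene itself was 0.26 higher, and the members' median was 0.01 relative to it. None of 66 other pathway genes was called.

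Sdf2l1 had the lowest p of the members. Its level in positive and negative cells was 84.8 and 78.0 CPM in the heterozygous islet library, 87.3 and 54.4 in the homozygous one, and 129 and 62.8, 166 and 90, and 119 and 72.2 in tumors A, B and C. It was higher in positive cells of all 5 libraries, by a log2 difference of 0.68 (SE 0.15, adjusted p = 0.420 in limma), or 0.42 relative to the median gene. Few UMIs lay behind some of these levels: 25 in heterozygous positive cells, and 16, 9 and 13 in negative cells of tumors A, B and C. For Ppib the same negative cells held 18, 8 and 21. Ppib was also higher in all 5 (0.59, SE 0.15, adjusted p = 0.448), and so was Manf (0.39, SE 0.11, adjusted p = 0.480), by the least in tumor C with 534 against 528 CPM. Herpud1 lay below the median gene in every library, with differences of -0.02 to -0.65 relative to it. Hspa5 was on both sides, from -0.27 in homozygous alpha cells to 0.69 in tumor B.

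**Figure D4:**
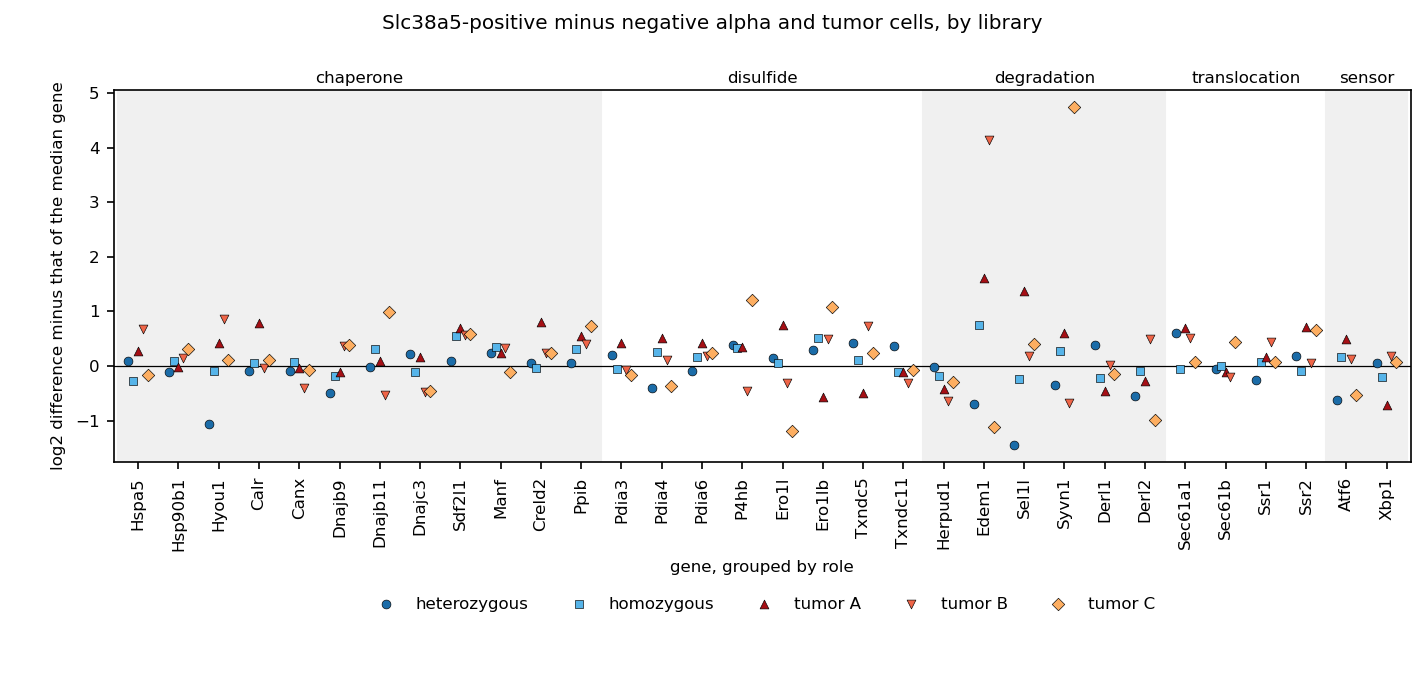
Log2 difference between Slc38a5-positive and negative cells minus that of the median gene, for 32 ER folding genes, 1 point per library. Sdf2l1 and Ppib are above 0 in all 5 libraries, Herpud1 is below 0 in all 5, and the far points of Edem1 and Syvn1 come from negative classes of 20 and 36 tumor cells with 0 UMIs of the gene.

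Within libraries the members varied among the authors' clusters. The genes described may have entered the clustering, so these ratios are descriptions, with intervals for counting error only. In tumor C, cluster 2 (697 cells) and cluster 4 (385 cells) had about the same sum over all members, 5762 and 5696 CPM, but differed gene by gene. Cluster 2 had less Sdf2l1 (99.6 against 149 CPM), Herpud1 (115 against 161) and Pdia6 (261 against 345), and more P4hb (256 against 183), Ssr2 (417 against 298) and Xbp1 (251 against 187). The ratio of Sdf2l1 was 0.667 (interval 0.617 to 0.722) and that of P4hb 1.40 (interval 1.32 to 1.49), with the median gene at 1.13. Derl3 was at 0.665 CPM in cluster 2 and at 6.08 in cluster 4 (ratio 0.110, interval 0.0473 to 0.225). Hspa5 was at 599 and 583 CPM in the same clusters.

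In the homozygous library the alpha cell clusters 2.1 (947 cells) and 2.2 (574 cells) had sums of 4071 and 3435 CPM. Hormone transcripts took 45.1% and 59.1% of their UMIs, and with these set aside the order turned, at 7409 and 8397. Ppib (173 against 104 CPM) and Manf (439 against 306 CPM) were higher in cluster 2.1, where the median gene's ratio was 1.25, and Hspa5 (222 against 250), Dnajb9 (99.4 against 118) and Xbp1 (117 against 133) lower. Dnajb9 is an ER cochaperone that opposes IRE1. Among the heterozygous beta cell clusters, 1.3 (189 cells) had more Sec61a1 than 1.1 (496 cells), at 91.8 against 63.8 CPM (ratio 1.44, interval 1.28 to 1.61), and more P4hb, at 266 against 199 CPM, with the median gene at 1.22.

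For 12 members with a mean of 0.5 UMIs or more after thinning to 5000, the median Spearman correlation over 66 pairs was 0.03, 0.06, 0.08, 0.08 and 0.04 in cells of both islet libraries (heterozygous first) and of the tumors in order (259, 1427, 479, 842 and 1068 cells), and the highest single pair reached 0.29 in tumor A. In the same order 50, 65, 53, 62 and 52 of the 66 pairs were above 0. With Gcg, the glucagon gene, 8, 11, 12, 11 and 12 of the 12 members had a correlation below 0, down to -0.37 for Calr in tumor A. All genes share the fixed total of 5000 UMIs per cell, of which hormone transcripts took a large part. Correlations of sparse counts this weak are given as a description and not as a finding.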

How the data were processed

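Single-cell libraries were made with a 10x droplet 3′ kit, per the labels' protocols; the submitters' processing notes name CASAVA 1.8, bcl2fastq 2.17, GSNAP and GRCm38. How UMIs were counted is not stated there. The deposited values are a normalized signal: the authors divided each UMI count by that of the whole cell, times 1 constant per table (9936, 9936 and 12219). The deposited counts are UMIs per cell. Dividing back gave whole UMIs, within 0.01, for 100.0% of values. The recovered sums were 1.014, 1.02 and 1.028 times the listed totals.

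Cell types and clusters were the authors' deposited ones. Scrublet (scanpy 1.11.5, expected rate 0.06) marked 8, 1, 18, 9 and 15 doublets (heterozygous, homozygous, tumors A, B and C), which were removed. Library totals were 10508498 to 34101553 UMIs, and no cell name was shared. The mean CPM over cells per library was tested with limma 3.58.1 (R 4.3.3) on log2(CPM + 1), over genes with 5 CPM or more in 2 libraries, with Benjamini-Hochberg adjustment at 0.05, so folds of low genes are understated. Sums over genes, genotype ratios and cluster levels used summed UMIs. Genotype ratios needed 50 CPM in 1 genotype and were called where the exact 95% interval lay beyond 1.5-fold. Amplified reads were collapsed to UMIs by the authors, and intervals cover counting error only.

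Alternatives were pseudocounts of 0.5 and 5, no filter, a 20 CPM filter, hormone-free totals, TMM, edgeR 4.0.16 and DESeq2 1.42.0 on recovered UMIs, summed cells, doublets kept, thinning to 3000 UMIs, no library block and leaving out libraries; the authors' cell totals were added as a scaling after seeing the data. The tumor and Slc38a5 fits were run on simulated counts, and the cell type fits were not. The Slc38a5 simulation used the totals of whole libraries, which are larger than those of the thinned classes. It therefore does not show how that fit performs on the small negative classes. Every listed gene could be named, those past the threshold with full values, and other pathway genes only past the threshold. The members, the lists and the element II search were chosen with earlier results of these data known. Protein features were not analysed here. Tumor labels could not be tied to libraries, which are named A, B and C.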

Additional observations from a re-analysis of the deposited data

Results flagged for a closer look

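All values are log2 differences between Slc38a5-positive and negative cells relative to the median gene, looked at for 32 genes in 5 libraries. Chance marks about 1 in 20 genes as having a library apart where all libraries are equally precise. They were not, with 430 negative homozygous cells but 51, 20 and 36 in tumors A, B and C. The share marked by chance may therefore be larger. Calr was at 0.78 in tumor A, far from the other libraries (-0.10 to 0.11). Sdf2l1 was at 0.10 in heterozygous alpha cells, below the others (0.55 to 0.70). Manf was at -0.11 in tumor C, below the others (0.23 to 0.34). Syvn1 was at 4.75 in tumor C (others -0.68 to 0.61), where the 36 negative cells held 0 UMIs of it.

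Hyou1 was lower in positive cells of both islet libraries (-1.06 and -0.09) and higher in those of tumors A, B and C (0.42, 0.87 and 0.11), a gap between the group means of -1.04. Sel1l behaved likewise (-1.45 and -0.24 against 1.37, 0.19 and 0.39), with a gap of -1.50. Both rest on few UMIs. Hyou1 had 3 UMIs in the 59 positive heterozygous cells (10.2 CPM) and 5 and 4 in the negative cells of tumors B and C, and Sel1l had 2 in the same heterozygous cells (6.78 CPM) and 2, 2 and 3 in the negative cells of tumors A, B and C. The difference between islets and tumors was not tested for either gene. The chance share given above is for a library apart and does not cover such a split. Chance alone can give both islet libraries the opposite sign to all tumors in some of the genes looked at. The share of all genes split this way was not worked out. Hyou1 and Sel1l may therefore be no more than chance gives.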

How the results depend on the processing

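The 2 members higher in tumors became 0 without a filter, with hormone-free totals, with TMM and in edgeR, and 0 to 1 when a library was left out. The 1 called without tumor C was Hyou1, and neither Hspa5 nor Herpud1 stayed called when any library was left out. The 1 member higher in beta cells became 0 without a filter, 2 with TMM, 6 with hormone-free totals, 15 in edgeR and 17 in DESeq2. The 1 member higher in delta cells became 0 with a pseudocount of 0.5, without a filter and with TMM, and 2 with a pseudocount of 5, a 20 CPM filter, summed cells and DESeq2, where 130 of 12886, 82 of 8653, 97 of 12886 and 391 of 12886 genes were higher. In endothelial cells the 10 higher and 3 lower became 3 and 7 with hormone-free totals, 3 and 8 with TMM, 4 and 14 in edgeR (25.5% and 23.6% of all genes) and 4 and 15 in DESeq2 (21.7% and 21.1%). The 1 member higher in homozygous alpha cells became 4 with hormone-free totals, of which Dnajb11 met the minimum through the homozygous library only. The cause was not tested.

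Reversals were as follows. Herpud1 in beta cells was -0.02 as reported and 0.61 in DESeq2. In endothelial cells, in the order hormone-free totals, TMM, edgeR and DESeq2, Canx was -0.071, -0.21, -0.13 and -0.18, Pdia3 -0.31, -0.42, -0.41 and -0.45, and Pdia4 -0.083, -0.21, -0.15 and -0.20. Calr was -0.051, -0.045 and -0.094 with TMM, edgeR and DESeq2. Over all settings the genes called higher and lower numbered 6 to 395 and 0 to 264 for tumors, 33 to 1033 and 70 to 1008 for beta, 53 to 553 and 11 to 428 for delta and 2039 to 4282 and 746 to 3046 for endothelial cells. For Slc38a5 they numbered 0 to 47 and 0 to 25, with 0 members in all 17 settings, the fit with no library block included. No member was called lower in tumors in any of 17 settings. No paired analysis was possible for tumors against islets, because the labels link no tumor library to an islet library, or between genotypes, because each had 1 islet library. The cell type and Slc38a5 fits compared cells of the same library and had the library as a block. The median over cells gave no ratio for Ero1lb, whose median was 0. Depth limits Derl3 and Ern1, which had 3 and 5 UMIs in heterozygous alpha cells, and the stellate ratios.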
